A study of Mus musculus with 3 samples.

Results

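Follicular and marginal zone B cells are the mature, resting B cells of the spleen. A set of 10 genes listed as their markers was followed here: Cr2, Fcer2a, Cd1d1, Dtx1, Notch2, Myof, Fcrl1, Fcrl5, Fcrla and Cd9. The members were picked out by gene name, as 10 of the 32285 genes in the deposited count matrices. They were read in B cells, taken as cells with at least 2 unique molecular identifiers (UMIs, each marking 1 captured RNA molecule) of Cd79a, which encodes part of the B cell receptor, and with none of Lyz2 or Cd3e, genes of phagocytes and T cells.

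Follicular B cells recirculate through the follicles, carry much of the low-affinity IgE receptor CD23 (Fcer2a) and answer protein antigens with T cell help. Marginal zone B cells sit at the edge of the white pulp, carry much of the complement receptor CD21 (Cr2) and of the lipid-presenting molecule CD1d with little CD23, and answer blood-borne antigens quickly. Their formation depends on signalling through NOTCH2, whose cleaved intracellular part works with the DNA-binding protein RBPJ, and the ubiquitin ligase gene Dtx1 is a known target of that pathway in B cells.

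Splenocytes of 12- to 14-week-old mice, depleted of T cells with anti-CD3 beads, were sequenced in 3 libraries with a 10x Genomics 5′ kit. The control library held sham-treated male C57BL/6 mice and female C57BL/6 mice, the label naming sham for the males only. The Ang II library held C57BL/6 mice that carried a minipump with angiotensin II (Ang II) for 2 weeks from 10 weeks of age, given placebo or 2-HOBA, a scavenger of reactive lipid aldehydes. The B6.SLE123 library held mice of that strain, which is C57BL/6 carrying lupus susceptibility intervals of another strain, given placebo or 2-HOBA for 6 weeks from 7 weeks of age. Each condition was a pool of 3 mice, cells were marked with antibodies bearing the hashtags C0301 to C0306, and the labels tie no hashtag to a condition or a mouse. The 6 hashtag populations of a library are therefore given as separate values, and the 2 conditions within a library were not compared. With 1 library per group no test was possible, none of the differences has a replicate check, and all intervals given below cover counting error only at the 95% level.

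B cells numbered 12507 of 15700 kept cells in the control library, 10792 of 14017 in the Ang II library and 12538 of 16702 in the B6.SLE123 library, with median depths of 1793, 2771.5 and 1983 UMIs per B cell. Because depth differed, shares of cells were taken after thinning each B cell to 1000 UMIs, which left out 661, 409 and 1049 shallower cells in the same order. All 4 B cell markers were present in each library at a summed 7672, 7109 and 6452 CPM, where CPM is the UMI count of a gene in the summed cells scaled to a fixed total of UMIs. Of these sums 4035, 3657 and 3285 CPM were Cd79a, which the B cell rule itself required. Summed plasma cell markers were at 338, 771 and 2976 CPM in these B cells, neutrophil markers at 80.4, 228 and 144 CPM, and T cell markers at 1.27 to 2.66 CPM. The T cell markers include Cd3e, which the rule kept absent. Between 415 and 496 cell barcodes were shared by each pair of libraries. Xist, the transcript of the inactive X chromosome, was found in 53.0% to 55.1% of B cells in control hashtags C0304 to C0306. It was found in 0.167% to 0.397% in control hashtags C0301 to C0303, in none of the B cells of the Ang II populations, and in 50.1% to 61.4% in the B6.SLE123 populations. Y-linked transcripts were found in 24.2% to 26.4% of B cells in control hashtags C0301 to C0303, and in 0.162% to 0.262% in C0304 to C0306. They were found in 34.6% to 38.5% of B cells in the Ang II populations and in none of those in the B6.SLE123 populations. The control library thus held populations of both sexes. Ratios of whole libraries used all of its populations, so sex and group cannot be told apart in them. Overlap calls also used all of them. A call of no overlap therefore holds beside the control populations of each sex, while a call of overlap may rest on those of either sex.

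The promoters of the 3 members that were at least 2-fold lower in B6.SLE123 B cells are shown first, because the 5′ kit reads RNA from its start and because they can be searched for the core of the RBPJ motif. The windows are those of RefSeq on GRCm38.p6, from 250 bases before to 50 bases after a transcription start, written 5′ to 3′ on the gene's strand with any TGGGAA (or TTCCCA, the same letters on the opposite strand) in capitals. Cr2 is at chr1:195176670-195176969, Fcer2a at chr8:3694125-3694424 for the most upstream of its 3 starts, and Myof at chr19:38043528-38043827, all on the minus strand.
Cr2: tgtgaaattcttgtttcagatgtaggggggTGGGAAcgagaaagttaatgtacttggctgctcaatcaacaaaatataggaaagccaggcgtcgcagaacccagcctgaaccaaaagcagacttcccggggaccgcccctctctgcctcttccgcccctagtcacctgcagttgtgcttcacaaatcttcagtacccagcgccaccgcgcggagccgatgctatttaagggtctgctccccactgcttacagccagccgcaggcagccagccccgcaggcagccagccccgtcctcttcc
Fcer2a: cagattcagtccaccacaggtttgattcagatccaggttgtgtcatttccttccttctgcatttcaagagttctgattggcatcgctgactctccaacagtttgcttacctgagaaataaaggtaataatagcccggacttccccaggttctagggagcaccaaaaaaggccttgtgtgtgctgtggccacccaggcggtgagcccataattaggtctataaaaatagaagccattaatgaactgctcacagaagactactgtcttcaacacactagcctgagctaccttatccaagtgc
Myof: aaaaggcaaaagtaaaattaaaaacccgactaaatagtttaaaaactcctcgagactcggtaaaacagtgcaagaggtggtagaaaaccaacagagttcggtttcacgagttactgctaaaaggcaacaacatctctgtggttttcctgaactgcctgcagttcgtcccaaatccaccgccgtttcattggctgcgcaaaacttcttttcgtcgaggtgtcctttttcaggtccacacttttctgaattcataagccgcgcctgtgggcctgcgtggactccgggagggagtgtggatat
The Cr2 window held TGGGAA once, at position -220 from the start, and the upstream Fcer2a window and the Myof window held none. Over 9 members with a window, 4 of 11 windows held the letters, beside 25.6% of all 32851 promoters in the table, so the members' share says nothing particular about them. The other 2 Fcer2a windows (chr8:3690812-3691111 and chr8:3690341-3690640) and the Cd9 window were the ones with a match besides Cr2, while Dtx1 and Notch2 had none. These are reference letters of C57BL/6, and the sequence of the B6.SLE123 mice was not analysed here.

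Cr2 and Fcer2a, the receptor pair that defines the split, were both lower in the B6.SLE123 library. Cr2 (chr1:195136811-195176716, minus strand) encodes complement receptors 1 and 2, which take up antigen coated with C3 fragments. In the 6 hashtag populations of the control library its lowest, median and highest levels were 327, 457 and 600 CPM. In the B6.SLE123 library they were 122, 219 and 257 CPM, so that all 6 populations lay under all 6 of the control library. The library values of 203 against 462 CPM gave a log2 ratio of -1.19 (95% interval -1.23 to -1.14), or 2.28-fold lower. After thinning, 28.6% (27.8% to 29.4%) of control and 17.6% (16.9% to 18.3%) of B6.SLE123 B cells had a Cr2 UMI, and the cells with a UMI held 1.44 and 1.30 of them each. The difference thus lay mostly in how many cells gave a UMI, which at this depth does not separate fewer positive cells from less RNA per cell.

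The 2-fold call of Cr2 was not met in 3 other treatments of the same data. The log2 ratio was -0.75 when the study's limits on RNA counts were read as UMIs, -0.84 after thinning, and -0.77 in B cells without UMIs of activation, germinal centre and plasma cell genes, an alternative chosen after the data were seen. The direction was the same in all 24 alternatives.

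Fcer2a (chr8:3681737-3694175, minus strand) encodes CD23, the low-affinity receptor for IgE. Its lowest, median and highest levels were 243, 307 and 351 CPM in the control populations. They were 75.5, 105 and 148 CPM in the B6.SLE123 populations, which all lay under the control ones. The log2 ratio of the libraries, at 107 against 304 CPM, was -1.50 (-1.56 to -1.44), or 2.83-fold lower, and stayed past 2-fold in all 24 alternatives, with a range of -1.59 to -1.10. The share of thinned cells with a UMI was 26.1% (25.3% to 26.9%) in the control and 11.9% (11.3% to 12.5%) in the B6.SLE123 library.

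Within the control library the receptors did not follow each other. Fcer2a was at 330 to 351 CPM in hashtags C0301 to C0303 and at 243 to 284 CPM in C0304 to C0306, the populations with Xist. Cr2 showed no such split, with 327 to 499 CPM in the first 3 and 442 to 600 CPM in the others. Hashtag C0305 held the highest Cr2 and the lowest Fcer2a of the 6. In the B6.SLE123 library hashtag C0303 was lowest for both, and its B cells were also the smallest share of kept cells, at 59.8%, with the highest median depth, 2688.5 UMIs. Without it, the log2 ratios were -1.06 for Cr2 and -1.41 for Fcer2a.

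**Figure D1:**
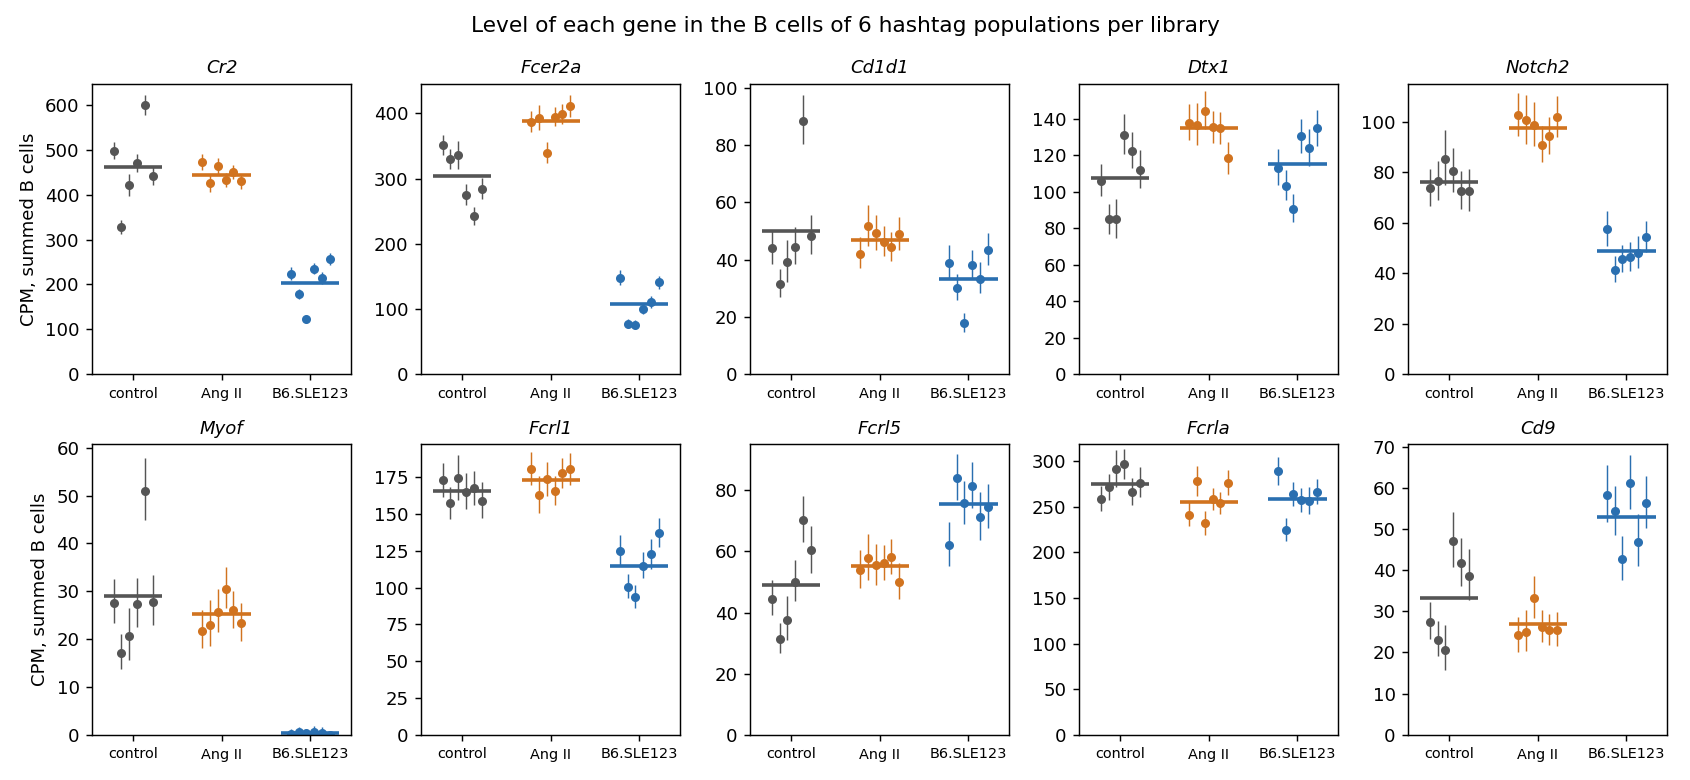
CPM of each of the 10 genes (y axis, from 0) in the summed B cells of each library (x axis). Points are the 6 hashtag populations, ordered C0301 to C0306, with exact Poisson 95% intervals, and horizontal lines are the whole libraries. The B6.SLE123 points of Cr2, Fcer2a, Notch2, Myof and Fcrl1 all lie under the control points, and those of Myof lie at 0 to 0.697 CPM.

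Notch2 was lower in the B6.SLE123 library and Dtx1 was not. Notch2 (chr3:98013527-98150361, plus strand) had lowest, median and highest levels of 72.6, 75.1 and 85.5 CPM in the control populations. In the B6.SLE123 populations they were 41.5, 47.2 and 57.5 CPM, again without overlap. The log2 ratio was -0.65 (-0.75 to -0.56), and it ranged from -0.69 to -0.33 over the alternatives, the smallest size being in B cells without UMIs of activation, germinal centre and plasma cell genes. Dtx1 (chr5:120680202-120711927, minus strand), which encodes the ubiquitin ligase deltex 1, was at 84.7, 109 and 131 CPM in the control and at 90.6, 118 and 135 CPM in the B6.SLE123 populations, and these overlapped. Its log2 ratio was 0.10 (0.03 to 0.17). In the control library Dtx1 was at 112 to 131 CPM in the 3 populations with Xist and at 84.7 to 106 CPM in the other 3.

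The rest of the Notch pathway, 20 genes from the receptor Notch1 and RBPJ to the secretase subunits, the fringe glycosyltransferases and the target Hes1, held no gene at least 2-fold different in either direction, beside 8.74% of all genes tested. Its median log2 ratio was -0.27, beside -0.09 over the 11459 genes tested. The lowest values were those of Hes1, a transcriptional repressor induced by Notch, at -0.96, and of Lfng, a fringe enzyme that tunes Notch receptors for their ligands, at -0.95. The highest was that of Dtx3, at 0.33.

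Cd1d1 and Cd9, surface proteins that are high on marginal zone B cells, differed in opposite directions. Cd1d1 (chr3:86995834-86999441, minus strand), which presents lipids to natural killer T cells, was at 31.5, 44.3 and 88.6 CPM (lowest, median and highest) in the control populations. It was at 17.8, 35.7 and 43.4 CPM in the B6.SLE123 populations, 2 of which lay under the control range. The control populations with Xist held 44.5 to 88.6 CPM, above every B6.SLE123 population, and those without Xist held 31.5 to 44.0 CPM. The log2 ratio of -0.59 (-0.70 to -0.47) was -0.17 when the limits were read as UMIs, and was -0.31 between the medians of the populations. Cd9 (chr6:125460266-125494791, minus strand) encodes a tetraspanin, a membrane protein that organises other receptors. Its levels were 20.6, 33.0 and 47.1 CPM in the control and 42.7, 55.3 and 61.2 CPM in the B6.SLE123 populations, and 4 of these 6 lay above the control range. The log2 ratio was 0.67 (0.55 to 0.78), and it reached 1.04 both with the limits read as UMIs and after thinning. Cd9 also split inside the control library, with 38.5 to 47.1 CPM in the 3 populations with Xist and 20.6 to 27.4 CPM in the others.

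Myof differed most of the 10. It encodes myoferlin, a calcium-binding membrane repair protein of the ferlin family, and lies at chr19:37899036-38043577 on the minus strand. The control populations held 59 to 247 Myof UMIs each, at a lowest, median and highest level of 17.1, 27.5 and 51.0 CPM. The B6.SLE123 populations held 0 to 4 UMIs each, at 0 to 0.697 CPM. The libraries held 776 UMIs in 12507 B cells and 13 UMIs in 12538 B cells, a log2 ratio of -6.20 (-7.12 to -5.42), or 73.7-fold lower, with -8.61 to -5.60 over the alternatives. The 13 UMIs lay in 13 cells, 0.104% (0.0552% to 0.177%) of the B6.SLE123 B cells, while 1 of 511 natural killer (NK) cells and 0 of 617 neutrophils of that library held one, too few to set a background.

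Myof was not missing from the B6.SLE123 library as a whole. Cells with Csf1r, the receptor of monocytes and macrophages, held 50 Myof UMIs among 394 cells of the control library (36.7 CPM, 27.2 to 48.3) and 26 among 615 cells of the B6.SLE123 library (15.7 CPM, 10.3 to 23.0). Of the 11 other genes tested within 1 Mb of Myof, none was at least 2-fold lower in B6.SLE123 B cells and 3, named after their values were seen, were at least 2-fold higher, namely Cpeb3, Kif11 and Cep55.

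The Fc receptor-like genes did not move together. Fcrl1 (chr3:87376387-87402934, plus strand), an activating co-receptor of B cells, was at 157, 166 and 174 CPM in the control populations. It was at 93.7, 119 and 137 CPM in the B6.SLE123 populations, all under the control ones, with a log2 ratio of -0.53 (-0.59 to -0.47). That ratio was -0.22 in B cells without UMIs of activation, germinal centre and plasma cell genes. Fcrl5 (chr3:87435773-87500678, plus strand), an inhibitory relative found on marginal zone and B1 cells, went the other way, from 31.3, 47.3 and 70.2 CPM in the control populations to 62.1, 75.2 and 84.0 CPM. Of the 6 B6.SLE123 populations 5 lay above the control range, and the log2 ratio was 0.62 (0.52 to 0.72). The 3 control populations with Xist held Fcrl5 at 50.1 to 70.2 CPM and the others at 31.3 to 44.5 CPM.

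Fcrla (chr1:170917576-170927583, minus strand) encodes a relative that stays inside B cells and binds immunoglobulin there. Its levels overlapped, at 258, 274 and 296 CPM in the control and 225, 260 and 289 CPM in the B6.SLE123 populations. Its log2 ratio of -0.09 (-0.14 to -0.05) had the opposite sign in 4 of the 24 alternatives and was 0.13 with the limits read as UMIs. Of the 4 further Fc receptor genes listed, Fcgr2b, the inhibitory IgG receptor of B cells, was the only one with enough UMIs to be compared, with a log2 ratio of -0.18.

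Set beside all genes tested in the B6.SLE123 comparison, the members counted as follows. Of the 10 members 3 (Cr2, Fcer2a and Myof) were at least 2-fold lower, beside 2.06% of 11459 genes, and none was at least 2-fold higher, beside 6.68% (8.74% of genes in either direction). The 6 populations of 5 members lay under all control populations, beside 13.6% of genes, and those of none lay above, beside 8.83% (22.5% in either direction). The ratio was lower still in 1.41% of the genes for Cr2, in 0.672% for Fcer2a and in 0.113% for Myof. The median of all genes shifted by at most 0.07 under another scaling.

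**Figure D2:**
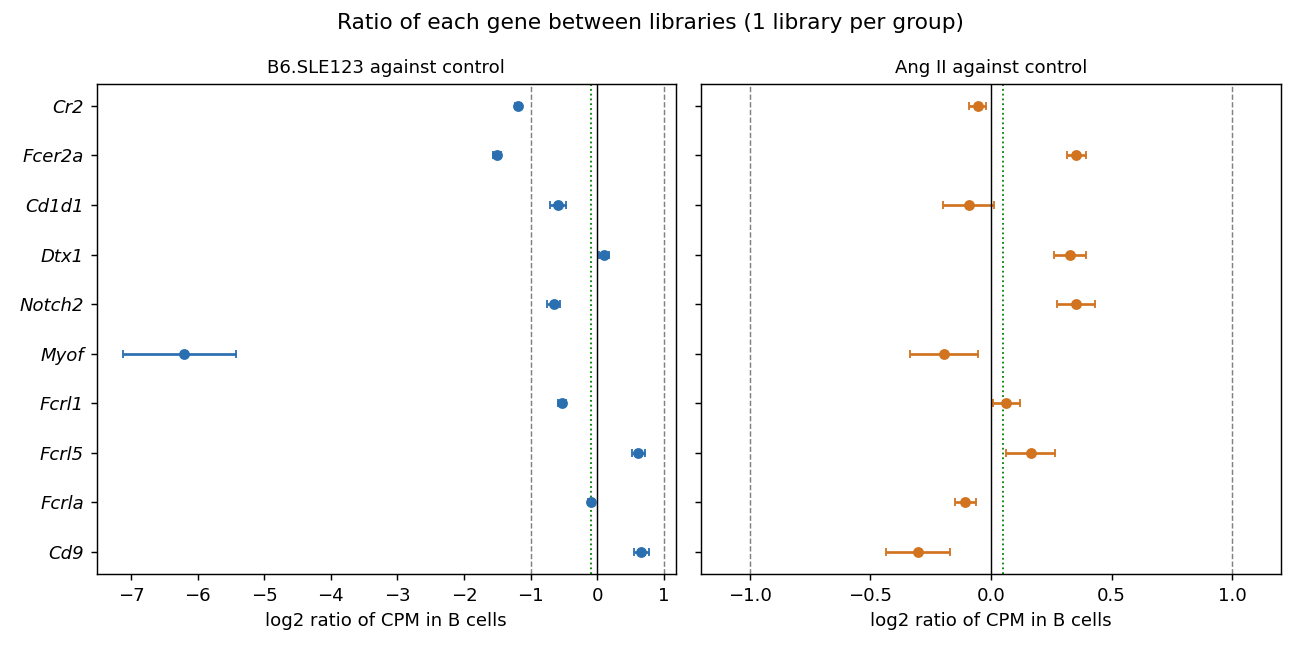
log2 ratio of CPM in B cells (x axis) of each gene (y axis) for the B6.SLE123 library (left) and the Ang II library (right) against the control library, with 95% counting intervals. Dashed lines mark 2-fold, the dotted line the median of all genes tested, and the x axes differ in range. Myof stands apart at -6.20 on the left, and all 10 genes lie within 2-fold on the right.

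In the Ang II library all 10 genes stayed within 2-fold of the control library. None was at least 2-fold higher, beside 1.3% of 11347 genes, and none at least 2-fold lower, beside 0.608% (1.9% in either direction). The 3 largest log2 ratios upwards were those of Fcer2a at 0.35 (0.31 to 0.39), Notch2 at 0.35 (0.27 to 0.43) and Dtx1 at 0.33 (0.26 to 0.40). These ratios used the control populations of both sexes, while no B cell of the Ang II populations had Xist. Notch2, at 91.0, 99.8 and 103 CPM in the Ang II populations, was the 1 member whose 6 populations all lay above the control ones, beside 7% of genes, and no member's lay under them, beside 5.05% (12% in either direction). For Fcer2a, 5 of the Ang II populations lay above the control range and the sixth, C0303, was at 340 CPM. Dtx1 had 5 of 6 above, at 118 to 144 CPM over the 6, but its ratio was -0.03 with the limits read as UMIs. The control populations without Xist held Dtx1 at 84.7 to 106 CPM, under all 6 Ang II populations. They held Fcer2a at 330 to 351 CPM, a range that included C0303 of the Ang II library.

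The other members had smaller whole-library ratios, and some of these depended on which control populations were read. Cr2 was at 426, 442 and 472 CPM in the Ang II populations, with a log2 ratio of -0.06 that became 0.04 without control hashtag C0305. Cd1d1 was at -0.09 and Myof at -0.19, and both turned positive without that hashtag, at 0.18 and 0.07. Fcrl1 stood at 0.06, Fcrl5 at 0.16 and Fcrla at -0.11. Cd9 was at -0.30 (-0.44 to -0.17), with 24.1 to 33.3 CPM in the Ang II populations. The control populations without Xist held 20.6 to 27.4 CPM and those with Xist 38.5 to 47.1 CPM, while no B cell of the Ang II populations had Xist. With the limits read as UMIs, which removed the deepest cells, the ratio of Cd9 was -0.99, that of Myof -0.90 and that of Fcrl5 -0.68.

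Cells were next split by whether they held a UMI of Cr2, of Fcer2a, of both or of neither, at 1000 UMIs each. These detection classes are not cell types, because a cell with few molecules of a receptor often gives none. In the control library 21.6% of B cells had Cr2 without Fcer2a, 7.04% had both, 19.1% had Fcer2a without Cr2 and 52.3% had neither. In the Ang II library the shares were 20.2%, 8.65%, 23.0% and 48.2%. In the B6.SLE123 library they were 15.6%, 2.07%, 9.83% and 72.5%. The share with neither was 48.9% to 54.8% over the control populations and 68.2% to 79.0% over the B6.SLE123 populations, without overlap, and the shares with both receptors and with Fcer2a alone did not overlap either. The share with Cr2 alone did overlap, at 16.9% to 27.1% against 11.2% to 18.1%.

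**Figure D3:**
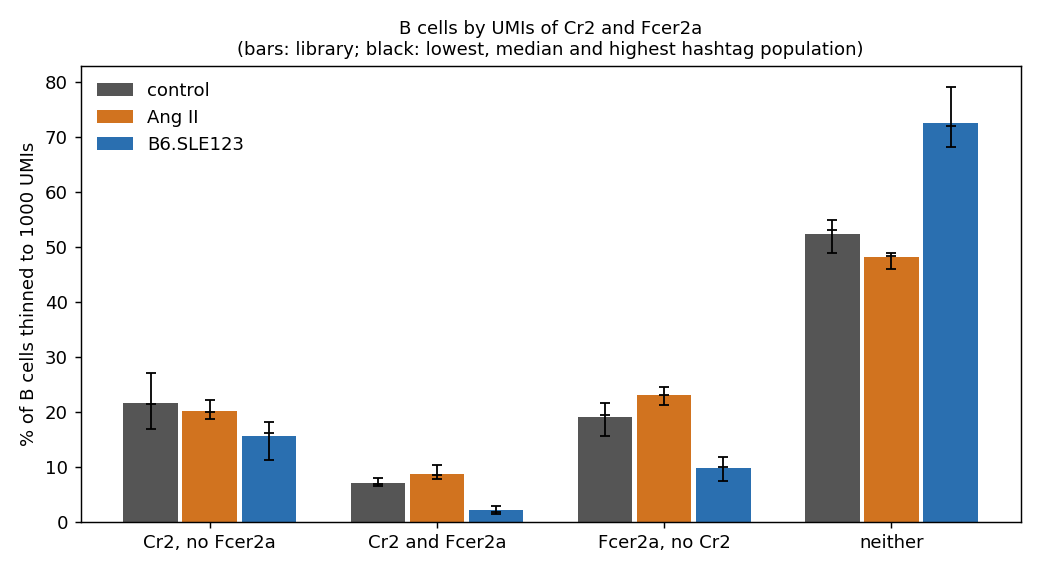
Percent of thinned B cells (y axis, from 0) with UMIs of Cr2, Fcer2a, both or neither (x axis) in each library. Bars are libraries and black marks the lowest, median and highest of the 6 hashtag populations. The class with neither holds 52.3% of the control and 72.5% of the B6.SLE123 cells.

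The classes were also read for the listed genes of each subset. In cells with a Fcer2a UMI 7 of 7 follicular genes were higher in all 3 libraries, and 6 of 7 marginal zone genes were lower in all 3, the exception being Cd36, a scavenger receptor, at -0.92, -0.93 and 0.10. In cells with a Cr2 UMI 6 of 7 marginal zone genes were higher in all 3 libraries, the exception being Mzb1, at -0.18 in the B6.SLE123 library. In the same cells 6 of 7 follicular genes were lower in all 3, and Cxcr5, a chemokine receptor that guides cells to follicles, stood at 0.06, 0.37 and 0.47. These counts score only the sign of each ratio. The share of all genes with the same sign in all 3 libraries was not computed, so how far the counts exceed it is not known. In cells with Fcer2a, S1pr3, a sphingosine-1-phosphate receptor of marginal zone B cells, was lower than in cells without it in every library, with log2 ratios of -2.31, -2.44 and -2.10 (control, Ang II and B6.SLE123). Ighd, the IgD constant region, was higher by 0.29, 0.39 and 0.63. In cells with a Cr2 UMI the log2 ratio of S1pr3 was 1.82, 1.89 and 1.33. Because Cr2 and Fcer2a were detected together at 0.94, 0.95 and 0.99 times the product of their single shares, Cr2 alone did not mark cells without CD23, and the split needed both genes.

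Among the members, Cd1d1, Dtx1, Cd9, Fcrl5 and Myof sided with Cr2 and against Fcer2a. In the control library Cd9 was at 45.0 CPM in cells with Cr2 alone and at 5.76 CPM in cells with Fcer2a alone. Fcrl5 was at 80.2 and 8.42 CPM, Dtx1 at 157 and 45.2 CPM, Cd1d1 at 78.2 and 25.3 CPM, and Myof at 44.6 and 3.99 CPM in the same 2 classes. The intervals of each pair were apart. Notch2 at 82.9 and 75.3 CPM, Fcrl1 at 180 and 186 CPM and Fcrla at 241 and 283 CPM differed far less, so these 3 told the classes apart poorly at this depth.

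The same 5 genes were found together in single cells more often than the product of their shares. Fcrl5 and Cd9 shared cells 4.60 times as often in the control library, 4.28 times in the Ang II library and 2.34 times in the B6.SLE123 library. Cd1d1 and Cd9 did so 3.67, 2.67 and 2.01 times as often, Dtx1 and Cd9 2.76, 2.24 and 1.54 times, and Myof and Cd9 4.39 and 4.20 times in the control and Ang II libraries. Fcer2a was found with Cd9 0.32, 0.41 and 0.36 times and with Fcrl5 0.36, 0.53 and 0.41 times as often as the product. For the pairs of Cd9 with Fcrl5, Cd1d1 and Dtx1 this ratio fell from control to B6.SLE123, while the pairs with Fcer2a showed no order. The share of cells with both genes did not fall alike. It was 0.312% in control and 0.592% in B6.SLE123 for Fcrl5 and Cd9, and 0.456% and 0.644% for Dtx1 and Cd9. For Cd1d1 and Cd9 it was 0.295% and 0.270%. The single share of Cd9 was 2.11% in control and 4.07% in B6.SLE123, which raises the product. The cells of 1 library share its depth and free RNA, and these ratios carry no test.

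Between libraries, Myof differed most within the cells with Cr2 alone. In this class Cd1d1 was at 78.2, 74.0 and 72.7 CPM in the 3 libraries (control, Ang II, B6.SLE123), and Fcrl5 at 80.2, 84.0 and 91.2 CPM. Dtx1 was at 157, 212 and 216 CPM, and B6.SLE123 exceeded control by 0.46 (0.26 to 0.67) on the log2 scale. Myof was at 44.6 CPM in the control and 53.5 CPM in the Ang II library, whereas the B6.SLE123 library held 1 UMI in 1788 such cells. In cells with at least 2 Cr2 UMIs and no Fcer2a the B6.SLE123 library held 0 Myof UMIs in 422 cells, where 3 UMIs would be 7.11 CPM, against 59 UMIs in 790 control cells (74.7 CPM). Myof was thus at or near 0 also in the cells that gave Cr2, Cd1d1 and Dtx1.

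The higher Cd9 and Fcrl5 of the B6.SLE123 library lay mostly outside the Cr2 cells. In cells with neither receptor they exceeded control by 1.24 (0.95 to 1.55, Cd9) and 1.31 (1.07 to 1.57, Fcrl5) on the log2 scale. In cells with Fcer2a alone they did so by 1.39 (0.26 to 2.55) and 1.45 (0.54 to 2.39), on only 17 and 26 B6.SLE123 UMIs. In cells with Cr2 alone the same difference was 0.52 (0.13 to 0.90) and 0.18 (-0.12 to 0.49). The difference between the classes itself was not tested. These ratios used the control populations of both sexes, while all B6.SLE123 populations had Xist. In whole control B cells the populations with Xist held more Cd9 (38.5 to 47.1 against 20.6 to 27.4 CPM) and more Fcrl5 (50.1 to 70.2 against 31.3 to 44.5 CPM). The classes were not compared within a sex. In the B6.SLE123 library Zbtb32, a transcriptional regulator high in B1 cells, had 31 UMIs in cells with Cd9 and 142 in those without, a log2 ratio of 2.36 per UMI of each class. With Fcrl5 the counts were 33 and 140 and the ratio 1.84. Mzb1, a chaperone of marginal zone, B1 and plasma cells, was 0.79 higher with Cd9 and 0.27 higher with Fcrl5. Zbtb32 was also among the activation, germinal centre and plasma cell genes used above to leave cells out. The other listed B1 genes are not reported here for these cells, and the subset of the cells was not tested.

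**Figure D4:**
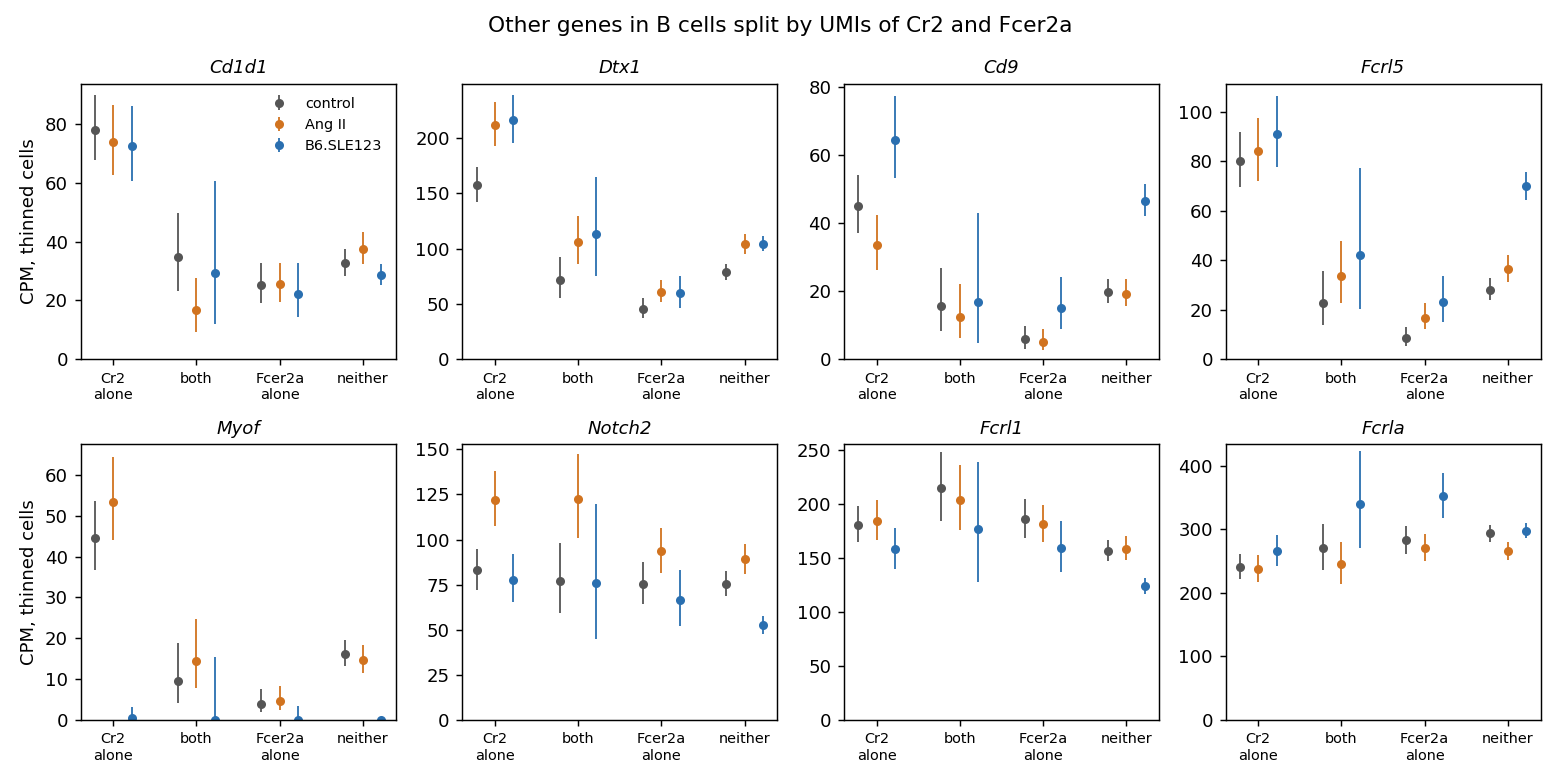
CPM of 8 genes (y axis, from 0) in thinned B cells split by UMIs of Cr2 and Fcer2a (x axis), for each library, with exact Poisson 95% intervals. Cd1d1, Dtx1, Cd9, Fcrl5 and Myof are highest with Cr2 alone in the control library, and Myof is near 0 in each class of the B6.SLE123 library.

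Genes with the pattern most like each member were sought among 8595 genes with at least 50 B cell UMIs in each library, by the lowest over the 3 libraries of the log2 ratio between cells with and without a UMI of the member. For Cr2 they were I830077J02Rik (2.31), Pla2g7 (1.86) and Ffar2 (1.84). For Fcrl5 they were I830077J02Rik (1.99), Ffar2 (1.73) and Plxnd1 (1.68), for Cd1d1 Plxnd1 (2.21), Asb2 (2.12) and I830077J02Rik (2.11), for Dtx1 Asb2 (1.68), Pla2g7 (1.66) and Plxnd1 (1.56), and for Cd9 Dnase1l3 (2.24), Serpine2 (2.18) and Plxnd1 (2.06). I830077J02Rik, Plxnd1 or both stood among the 3 for each of these 5 genes. Some of these ratios rested on few UMIs, and no intervals are given. In cells with Cd9 there were 8, 5 and 15 UMIs of Dnase1l3 (control, Ang II and B6.SLE123). Serpine2 had 8, 4 and 26 there, and Plxnd1 6, 5 and 12. For Fcer2a the leading genes were Marcksl1 (0.56), Shq1 (0.53) and Gm19585 (0.50), much weaker companions. Those of Notch2 (Rbak, Gm4890, H2-T24), Fcrl1 (Impdh1, Evi2b, Gm26760) and Fcrla (Fmo5, Klc4, Wfdc21) reached 0.78, 0.66 and 0.73 at most, and Myof had too few B6.SLE123 cells to be ranked.

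Other genes of the same B cell subsets gave the setting for the members in the B6.SLE123 library. Of 7 further marginal zone genes none was 2-fold different, beside 8.74% of all genes in either direction, with a median log2 ratio of -0.04 and a range from Asb2, a ubiquitin ligase subunit, at -0.81 to Mzb1 at 0.98. Of 7 follicular genes none was 2-fold different, with a median of -0.40 and values from Ighd at -0.91 to Klf2, a factor of quiescence and recirculation, at -0.01. The partners of complement receptor 2 had a median of -0.22, from Cd55, which limits complement activation, at -0.83 to the co-receptor subunit Cd81 at 0.19.

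Most listed genes of activated B cell states were higher. All 3 atypical B cell genes were at least 2-fold higher, from Itgam at 1.52 to Tbx21 (T-bet) at 2.27, as were 4 of 5 germinal centre genes, beside 6.68% of all genes, with Bcl6 at -0.24 as the exception. Of 3 B1 genes 2 were, up to Zbtb32 at 3.29 with Cd5 at 0.47. Of the 2 transitional genes Cd93 was at -1.18 and Vpreb3 at -0.91. Without cells holding UMIs of such activation, germinal centre and plasma cell genes, the log2 ratios of Cr2 (-0.77), Fcer2a (-1.10), Notch2 (-0.33) and Fcrl1 (-0.22) were nearer to 0, that of Myof was -6.51, and that of Fcrl5 was 0.77. No gene of these lists was 2-fold different in the Ang II library, beside 1.9% of all genes. There the follicular median was 0.24, the Notch pathway median 0.16 and the marginal zone median -0.05, beside 0.05 for all genes.

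The members were also read in the cells outside the B cell rule. In NK cells, which should lack the receptor, a Cr2 UMI was found in 0.698%, 1.5% and 0.391% of cells (control, Ang II and B6.SLE123, median depths 1784.5, 2506.5 and 1358 UMIs), against 43.1%, 53.0% and 29.5% of B cells before thinning. For Fcer2a the NK shares were 1.16%, 1.80% and 0.391%, for Fcrl1 0.233%, 0.599% and 0.196%, and for Fcrla 0.465%, 0.299% and 0.783%. For these 4 genes the B cell share was far above the NK share. Dtx1 was found in 3.26%, 5.69% and 1.17% of NK cells and in 0.187% to 0.972% of neutrophils, against 15.6%, 24.8% and 21.7% of B cells. Cd1d1 was found in 3.02%, 8.08% and 4.11% of NK cells and in 0.373% to 1.55% of neutrophils, against 8.32%, 11.5% and 7.43% of B cells. How much of the Cd1d1 and Dtx1 in NK cells was free RNA was not tested. Fcrla was at 305, 211 and 81.2 CPM in the 11, 24 and 163 plasma cells.

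Cd9 and Notch2 were also found in cells other than B cells. Cd9 was highest in cells with Pf4, a platelet gene, at 5412, 10930.2 and 1629 CPM in only 3, 7 and 18 cells, and stood at 137, 114 and 230 CPM in cells with Csf1r. It was at 530, 558 and 556 CPM in neutrophils and at 370, 371 and 389 CPM in NK cells. Carried into B cells with the neutrophil markers found there it would give 0.137, 0.361 and 0.244 CPM, and with the NK markers 1.05, 0.654 and 1.11 CPM, beside the 33.3, 27.0 and 52.9 CPM measured. Carry-over from the Pf4 and Csf1r cells was not tested, and the summed platelet markers in B cells were at 2.91, 1.21 and 2.33 CPM. Notch2 in cells with Csf1r was at 139, 158 and 96.0 CPM, the same order over the libraries as in B cells, at 76.4, 97.5 and 48.7 CPM.

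Fcrl5 was found outside B cells in the B6.SLE123 library. In cells with Csf1r and no Cd79a it had 1 UMI in the control, 1 in the Ang II and 156 in the B6.SLE123 library, the last at 94.2 CPM and in 9.92% of 615 cells. Hashtag C0303 held 128 of the 156 UMIs, in 20.2% (15.4% to 25.6%) of its 258 such cells, hashtags C0302 and C0304 held 9 and 18, and the other 3 held 0 or 1. The 61 cells with Fcrl5 held C1qb, a subunit of complement C1q, at 3547 CPM against 320 CPM in the B6.SLE123 Csf1r cells without Fcrl5, and Fcgr4, an activating IgG receptor of phagocytes, at 2466 against 211 CPM. The same cells held less of Lyz2 (597 against 12720 CPM), of Csf1r itself (478 against 862 CPM) and of Cd9 (81.5 against 249 CPM). Their B cell genes were low or mixed, with Ms4a1 (CD20) at 5.43 CPM and Cd79b at 277 CPM against 35.3 CPM in the cells without Fcrl5. Whether doublets or free RNA of B cells contributed was not tested.

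**Figure D5:**
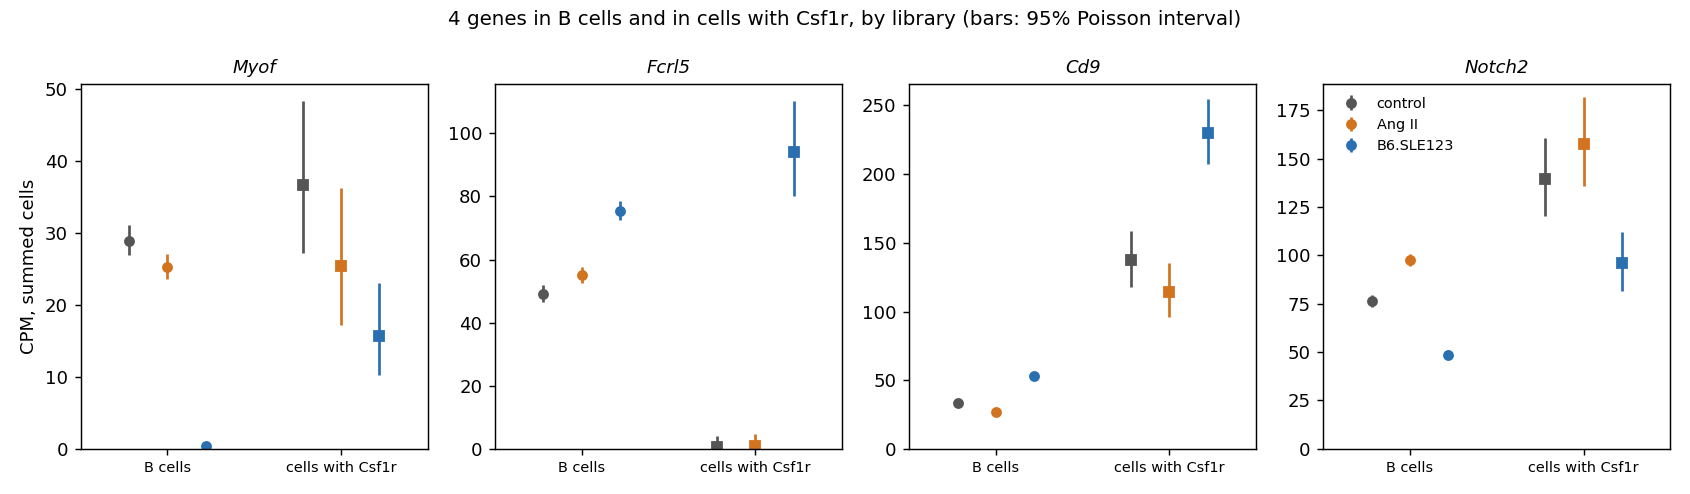
CPM (y axis, from 0) of Myof, Fcrl5, Cd9 and Notch2 in B cells and in cells with Csf1r (x axis), by library, with exact Poisson 95% intervals. Myof of the B6.SLE123 library is near 0 in B cells and at 15.7 CPM in cells with Csf1r, and Fcrl5 of cells with Csf1r is at 94.2 CPM in that library, against 1 UMI in each of the others.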

How the data were processed

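Single splenocytes were profiled in 3 libraries, 1 per group, with no replicate library. The authors deposited raw UMI counts, without normalization, for genes and hashtags. Cell Ranger 6.0.0 is named in the file headers and mm10 in the submitters' processing notes. The study's limits on RNA counts (200 and 3500) were read as numbers of detected genes, and mitochondrial UMIs had to stay under 15%. Hashtags were called per library by Otsu's method on log counts, and barcodes carrying more than 1 (13.5%, 11.4% and 18.0%) were dropped, which leaves pairs of cells under the same hashtag undetected. B cells were summed and scaled to CPM, with exact Poisson, Clopper-Pearson (shares) and conditional binomial (ratios) 95% intervals. Ratios across genes used those with at least 50 UMIs over both libraries. No count model and no test between groups was run, and Dixon's limit was used to mark single hashtag populations.

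Gene positions were taken from GENCODE vM21 (GRCm38). Other cells needed no Cd79a UMI and at least 1 UMI of Ncr1 (NK) or Csf1r, 10 of S100a8 (neutrophils), or 10 of Jchain (plasma cells), limits set after the data were seen. All 10 members are named whatever their values, with the highest and lowest gene of each list and the 3 leading companions of each member. A few list genes are not reported here. Members and lists were chosen with earlier results of these data known. Ratios and intervals were tested on simulated data. Python 3.11.15, scipy 1.17.1, scikit-image 0.26.0 and edgeR 4.0.16 (TMM factors) were used. Alternatives were the limits read as UMIs, no doublet removal, other B cell rules, thinning, 2 other scalings, the median of the populations, and leaving out each hashtag.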

Additional observations from a re-analysis of the deposited data

Results flagged for a closer look

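In each group of 6 hashtag populations the B cell level of each member was checked for a population far from the others by Dixon's test, in 30 groups, and 5 passed its 95% limit, where chance passes about 1 in 20. In the control library hashtag C0305 held Cd1d1 at 88.6 CPM, beside 31.5 to 48.4 CPM in the other 5, and Myof at 51.0 CPM, beside 17.1 to 27.7 CPM. In the Ang II library hashtag C0303 held Fcer2a at 340 CPM, beside 387 to 411 CPM, and Cd9 at 33.3 CPM, beside 24.1 to 26.2 CPM. Hashtag C0306 of the Ang II library held Dtx1 at 118 CPM, beside 135 to 144 CPM. Outside B cells, Fcrl5 stood at 94.2 CPM in the Csf1r cells of the B6.SLE123 library, beside 1 UMI in those of the control library.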

How the results depend on the processing

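The log2 ratios of the 10 members were recomputed under 24 alternatives for each comparison, 12 of them leaving out a hashtag population and 1 chosen after the data were seen. No called ratio changed sign. In the B6.SLE123 comparison 9 members kept their sign in all 24 and Fcrla in 20. Of all 480 recomputed ratios 399 moved by less than their 95% counting interval and 81 by more. The number of members at least 2-fold higher in the B6.SLE123 library went from 0 to 1 (Cd9) with the limits read as UMIs and likewise to 1 after thinning to 1000 UMIs, and the number at least 2-fold lower from 3 to 2 under both and without activated, germinal centre and plasma cells. Leaving out single hashtags kept it at 3. With a minimum of 1 UMI over both libraries 23.1% of genes in the B6.SLE123 and 17.0% in the Ang II comparison were 2-fold different, and with 20 UMIs 3.51% in the Ang II comparison. The shares of B cells with a UMI moved by more than their interval in 59 recomputed values and not in 1, since thinning to another depth or not at all sets the share by construction. Joint detection moved by more than its interval in 59 of 270 recomputed pairs. No paired analysis was possible because each group is 1 library and the hashtag numbers are not tied to mice. Counts limit Myof in B6.SLE123 B cells, Cd9 and Fcrl5 per hashtag, and joint detection, and depth differed between libraries.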
